A study of Homo sapiens with 6 samples.

Results

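The 9 genes described here encode proteins that store, take up, release and sense iron (FTH1, FTL, TFRC, NCOA4, IREB2 and ACO1) or that set how readily membrane lipids are peroxidised in ferroptosis (GPX4, ACSL4 and AIFM2). They were taken by name from the deposited table, and all 9 were found among its 13117 genes. RNA-seq was performed on SNU449, an established human hepatocellular carcinoma line that carries the pInducer20-FOXO1AAA construct (FOXO1 is a transcription factor). The Dox group (3 libraries) received 2 µM doxycycline hydrochloride for 48 h, and the Cont group (3 libraries) carried the same construct and received no doxycycline. The labels give the genotype as WT and do not say whether the cells were 1 clone or a pool. Cells without the construct that received doxycycline were not part of the comparison, so drug and construct effects cannot be told apart. They do not mention separate cultures either, so p-values measure the spread between these libraries, which may be technical.

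Cells take up iron bound to transferrin through the transferrin receptor (TFRC) and store what they do not use inside ferritin, a shell of heavy (FTH1) and light (FTL) chains. NCOA4 is the cargo receptor that carries ferritin to the lysosome, where its iron is freed. Iron regulatory protein 1 (ACO1, which doubles as cytosolic aconitase when it holds an iron-sulphur cluster) and iron regulatory protein 2 (IREB2) bind hairpins called iron-responsive elements. When iron is scarce, binding in a 5′ untranslated region blocks translation of ferritin, and binding in the 3′ untranslated region protects the TFRC mRNA from decay. Ferroptosis is an iron-dependent form of cell death driven by peroxidised phospholipids: ACSL4 loads polyunsaturated fatty acids into phospholipids, GPX4 reduces lipid peroxides with glutathione, and AIFM2 (FSP1) reduces coenzyme Q as a parallel protection.

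The hairpins through which ACO1 and IREB2 proteins act on the FTH1, FTL and TFRC mRNAs were read from the GENCODE 29 transcripts (GRCh38). They are shown to describe these 3 mRNAs, and their part in the changes below was not tested. The longest coding transcript of each gene was searched on its own strand for C, then NNNNN, then a loop of CAGTG and a base other than G, then NNNNN, with all 5 bases of both arms able to pair (G with T allowed). Such letters were found in 3 of the 9 genes and in 0.961% of the 19669 coding genes searched. The capitals mark the 6-base loop, and the sequences are written as DNA, 5′ to 3′.
FTH1, 5′ UTR, chr11:61967574-61967602, minus strand: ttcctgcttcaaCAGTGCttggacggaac
FTL, 5′ UTR, chr19:48965335-48965363, plus strand: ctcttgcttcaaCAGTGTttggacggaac
TFRC site 1, 3′ UTR, chr3:196050979-196051007, minus strand: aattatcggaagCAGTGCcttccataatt
TFRC site 2, 3′ UTR, chr3:196050575-196050603, minus strand: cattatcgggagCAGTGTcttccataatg
TFRC site 3, 3′ UTR, chr3:196050510-196050538, minus strand: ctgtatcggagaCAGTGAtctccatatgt
TFRC site 4, 3′ UTR, chr3:196050463-196050491, minus strand: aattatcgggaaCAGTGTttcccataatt
The ferritin chains each held 1 such site near the start of the transcript. In TFRC the search found 4 in the 3′ UTR, between bases 3388 and 3932 of the transcript. A match describes the letters only, and the search does not find hairpins with other bulges or loops.

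Levels are given in FPKM, fragments per kilobase of transcript scaled to the mapped total of the library, so they can be set against each other between genes. The libraries held an estimated 31.4 to 47.1 M reads in Dox and 28.4 to 41.5 M in Cont, and on that rough scale each of the 9 genes had between 1821 and 413451 reads in every library. FOXO1 itself, the induced gene, was at FPKM 2.87, 3.50 and 2.01 in Dox, against 0.741, 0.776 and 0.889 in Cont, and no source used here says whether reads of the construct were counted there. Of 8 hepatocyte markers, ALB and FGB were in the table and APOA1, APOA2, APOB, TTR, SERPINA1 and HNF4A were not. The summed FPKM of the pair was 8.14 to 10.8 in Dox and 135 to 192 in Cont. FGB was lower in every Dox library, whereas ALB, at FPKM 1.71, 1.00 and 0.850 in Dox and 0.571, 0.298 and 0.0941 in Cont, was higher there. Of 4 epithelial markers, KRT8, KRT18 and CDH1 summed to 32.8 to 34.5 in Dox and 122 to 127 in Cont. The mesenchymal markers VIM, CDH2 and FN1 summed to 296 to 355 in Dox and 946 to 961 in Cont, although FN1 alone was higher in Dox. For immune cells only CD14 of 5 markers was listed, at 2.25 to 2.38 in Dox and 1.73 to 2.35 in Cont, and for endothelial cells PECAM1 and CDH5 of 3 summed to under 1 in every library. None of the 4 erythroid markers was in the table. In these bulk samples fewer cells of a type and less RNA per cell cannot be told apart. The part of these marker levels in the results was not tested.

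All 9 genes were tested in the limma fit over 11526 genes (adjusted p under 0.05 as the threshold, Benjamini-Hochberg adjustment over all tested genes). ACSL4 and NCOA4 rose with doxycycline, FTH1, FTL, TFRC, ACO1 and IREB2 fell, and GPX4 and AIFM2 did not pass. That is 7 of 9 called, where 80.4% of all tested genes were called, so the share called was no larger than the background. By direction, 2 of 9 were higher, against 37.6% of all tested genes, and 5 of 9 were lower, against 42.8%. The median log2 change of the 9 genes was -0.40 and that of all tested genes -0.06. The 3 Dox and 3 Cont values did not overlap in 8 of the 9, GPX4 being the exception, and did not overlap in 82.1% of all tested genes.

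**Figure D1:**
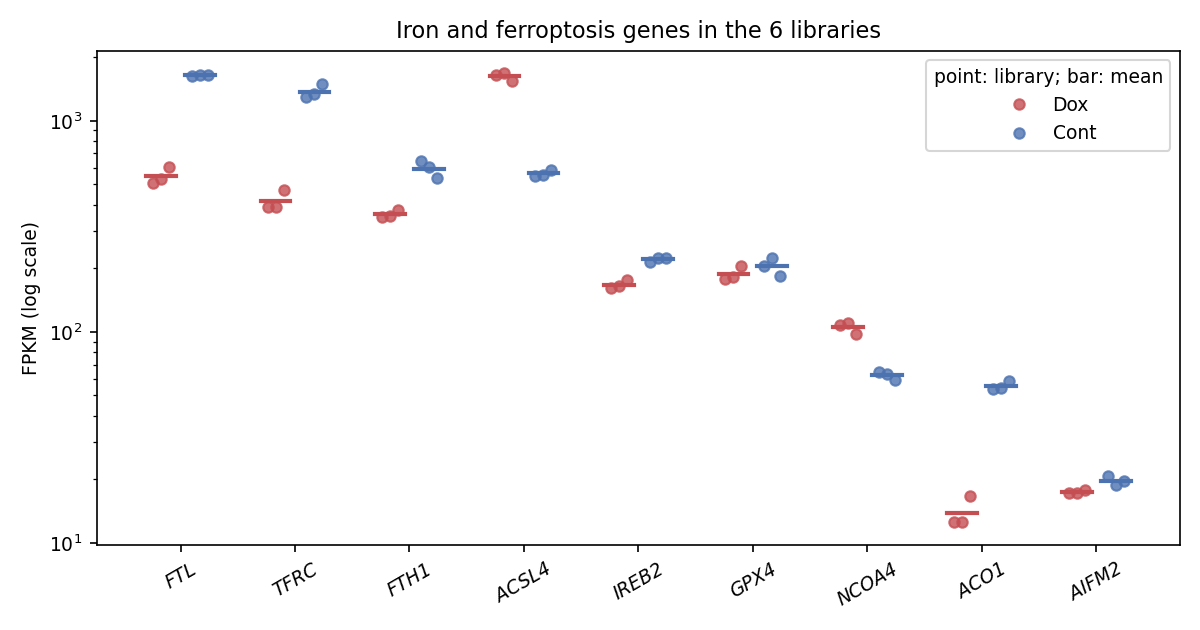
FPKM (log scale) of the 9 genes in the 3 Dox and 3 Cont libraries. Points are libraries and bars are group means; ACSL4 and NCOA4 lay higher in Dox, and only in GPX4 did the groups overlap.

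Both ferritin chains fell, the light chain further than the heavy chain. FTL (chromosome 19, 48965301 to 48966878, GRCh38) had FPKM 508, 529 and 605 in Dox, against 1628, 1656 and 1648 in Cont. Every Dox library lay far below every Cont library, with a mean of 547 ± 50.9 in Dox and 1644 ± 14.3 in Cont (SD, n = 3 each), a ratio of 0.333 and a log2 change of -1.59 (SE 0.08, limma adjusted p = 5.92e-08). FTH1 (chromosome 11, 61959718 to 61967660), whose chain holds the ferroxidase activity of ferritin, had FPKM 349, 356 and 379 in Dox, against 644, 602 and 534 in Cont. Its Dox values lay close together and below the more widely spread Cont values, with means of 361 ± 16.1 in Dox and 593 ± 55.7 in Cont (SD, n = 3 each) and a log2 change of -0.71 (SE 0.082, limma adjusted p = 2.24e-05). The change of FTH1 was -0.36 under quantile normalization. It was -0.43 in nuclear-gene TPM, meaning TPM (each library rescaled to an equal sum) computed after mitochondrially encoded genes were left out, and it passed in both. Ferritin genes have many processed copies in the genome: GENCODE 29 names 25 pseudogenes for FTH1 and 16 for FTL. No source used here says how reads shared with such copies were counted, so both levels are uncertain. FTH1 also overlaps BEST1 on the opposite strand, and the use of strand in counting is likewise not stated.

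TFRC, the receptor that brings in transferrin-bound iron, fell as well. It lies on chromosome 3 (196027183 to 196082189) and had FPKM 389, 392 and 470.4 in Dox, against 1294, 1338 and 1495 in Cont. The highest Dox library was below the lowest Cont library by a wide margin. The means were 417 ± 46.1 in Dox and 1376 ± 105 in Cont (SD, n = 3 each), a ratio of 0.303 and a log2 change of -1.72 (SE 0.094, limma adjusted p = 1.02e-07). The TFRC mRNA, with its 4 sites in the 3′ UTR, and the ferritin mRNAs, with a site in the 5′ UTR, thus fell in the same comparison.

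NCOA4, the ferritin cargo receptor of autophagy, rose. It lies on chromosome 10 (46005088 to 46030714) and had FPKM 108, 109.7 and 98.1 in Dox, against 64.9, 62.9 and 59.1 in Cont. All 3 Dox libraries were higher than all 3 Cont libraries, with means of 105 ± 6.30 in Dox and 62.3 ± 2.92 in Cont (SD, n = 3 each) and a log2 change of 0.75 (SE 0.071, limma adjusted p = 5.28e-06). GENCODE 29 names 3 pseudogenes for NCOA4, with the same limit on its level.

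The mRNAs of the iron regulatory proteins fell by unequal amounts. ACO1 (chromosome 9, 32384603 to 32454769) had FPKM 12.5, 12.6 and 16.7 in Dox, against 53.7, 54.1 and 58.3 in Cont. Its Dox values were low in every library, and its fall was the largest of the 9 genes, to 13.9 ± 2.38 in Dox against 55.3 ± 2.54 in Cont (SD, n = 3 each; log2 change -1.93, SE 0.107, limma adjusted p = 1.16e-07). Of all tested genes, 8.98% changed by more in either direction. IREB2 (chromosome 15, 78437431 to 78501456) had FPKM 161, 165 and 175 in Dox, against 214, 224 and 223 in Cont. The groups did not overlap, but the difference was small, with means of 167 ± 7.21 in Dox and 221 ± 5.49 in Cont (SD, n = 3 each) and a log2 change of -0.40 (SE 0.063, limma adjusted p = 0.000216). This call rested on scaling, since the change was -0.14 with quantile normalization (limma adjusted p = 0.0653) and -0.12 in nuclear-gene TPM (limma adjusted p = 0.0908). IREB2 overlaps an antisense gene in the annotation, so its reads may include some of that transcript.

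ACSL4, which activates arachidonic and other polyunsaturated fatty acids, showed the larger of the 2 rises. It lies on chromosome X (109624244 to 109733403) and had FPKM 1646, 1679.5 and 1537 in Dox, against 547, 556 and 587 in Cont. The lowest Dox library stood far above the highest Cont library. The means were 1621 ± 74.3 in Dox and 564 ± 20.9 in Cont (SD, n = 3 each), a 2.88-fold ratio and a log2 change of 1.52 (SE 0.07, limma adjusted p = 3.44e-08). In Dox the ACSL4 mRNA was at the 99.8th percentile of all genes in the table, and in Cont at the 98.7th. ACSL4 overlaps KCNE5 on the same strand in the annotation, so its reads may include some of that gene.

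The mRNAs of the protective enzymes GPX4 and AIFM2 moved little. GPX4 (chromosome 19, 1103926 to 1106791) had FPKM 178, 182 and 206 in Dox, against 206, 224 and 185 in Cont. The groups overlapped, with means of 189 ± 15.1 in Dox and 205 ± 19.5 in Cont (SD, n = 3 each), and the log2 change was -0.12 with a 95% interval of -0.314 to 0.082 (limma adjusted p = 0.246). Its sign turned with scaling, to 0.15 under quantile normalization and 0.16 in nuclear-gene TPM. AIFM2 (chromosome 10, 70098223 to 70132934) had FPKM 17.3, 17.3 and 17.9 in Dox, against 20.8, 18.8 and 19.7 in Cont. The Dox values lay just under the Cont values, with means of 17.5 ± 0.327 in Dox and 19.8 ± 1.04 in Cont (SD, n = 3 each). The log2 change of -0.17 had a 95% interval of -0.329 to -0.004 and did not pass (unadjusted p = 0.0455, limma adjusted p = 0.056), and it was 0.10 in nuclear-gene TPM. AIFM2 overlaps H2AFY2 on the opposite strand. Missing the threshold does not show that either mRNA was at the same level in both groups.

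**Figure D2:**
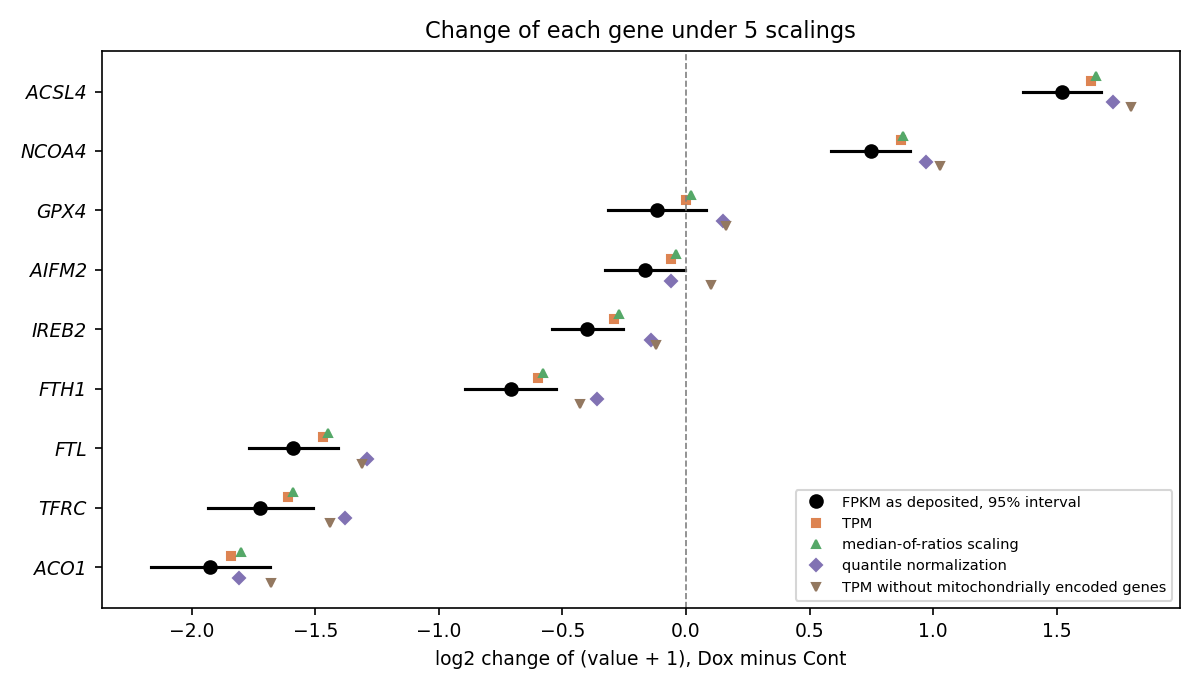
Log2 change (Dox minus Cont) of each gene on the log2(value + 1) scale, with the 95% interval of the fit on deposited FPKM as a black line, and the same change under 4 other scalings as coloured marks. ACO1, TFRC, FTL and FTH1 stayed below 0 and NCOA4 and ACSL4 above 0 in all 5, IREB2 stayed below 0 but came as near as -0.12, and GPX4 and AIFM2 lay on either side of 0.

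The 13 mitochondrially encoded mRNAs took 13.2% to 14.7% of the summed FPKM in the Dox libraries and 3.0% to 4.67% in the Cont libraries, and their part in the changes above was not tested beyond this rescaling. In nuclear-gene TPM the median log2 change of all tested genes was 0.22, against -0.06 for FPKM as deposited. Relative to the median of all tested genes under the same scaling, the log2 change of ACSL4 was 1.58 in nuclear-gene TPM and 1.59 as deposited. By the same measure ACO1 was at -1.90 and -1.86, FTH1 at -0.65 and -0.65, and IREB2 at -0.34 and -0.34. Among all tested genes, calls in the higher direction made up 60.2% in nuclear-gene TPM and 46.7% as deposited.

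The order of the mRNA levels changed with the treatment. In Dox the order by mean FPKM was ACSL4, FTL, TFRC, FTH1, GPX4, IREB2, NCOA4, AIFM2 and ACO1, and no neighbours overlapped in their 3 values. In Cont it was FTL, TFRC, FTH1, ACSL4, IREB2, GPX4, NCOA4, ACO1 and AIFM2. There FTH1 and ACSL4 overlapped, at 534 to 644 and 547 to 587, and so did IREB2 and GPX4. ACSL4 thus stood at the top in Dox and, overlapping FTH1, below FTL and TFRC in Cont, whereas ACO1 stood below AIFM2 in Dox and above it in Cont.

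Ratios between genes of the same library do not depend on scalings that multiply a library by 1 factor, but quantile normalization can change them, and the ratios here are of FPKM as deposited. The ratio of FPKM of FTH1 to FTL was 0.686, 0.672 and 0.627 in Dox, against 0.396, 0.363 and 0.324 in Cont, so heavy chain mRNA made up more of the ferritin mRNA in every Dox library. The ratio of IREB2 to ACO1 was 12.9, 13.1 and 10.5 in Dox, against 3.99, 4.15 and 3.83 in Cont. The mRNA of iron regulatory protein 2 exceeded that of protein 1 in all 6 libraries, and by about 3.04 times more in Dox.

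The ratio of TFRC to FTH1, receptor to ferritin heavy chain, was 1.11, 1.10 and 1.24 in Dox, against 2.01, 2.22 and 2.80 in Cont. This difference is particular to the heavy chain: the log2 changes of TFRC and FTL lay close, at -1.72 and -1.59, against -0.71 for FTH1. No ratio of TFRC to FTL was computed. The ratio of NCOA4 to FTH1, cargo receptor to cargo, was 0.310, 0.308 and 0.258 in Dox, against 0.101, 0.105 and 0.111 in Cont. The ratio of ACSL4 to GPX4 was 9.26, 9.22 and 7.47 in Dox, against 2.66, 2.48 and 3.18 in Cont, a 3.12-fold difference of the means. These 5 ratios did not overlap between the groups, and each reached p = 0.1 in a two-sided exact permutation test, the smallest that 3 against 3 libraries can give. Of single tested genes, 82.1% did not overlap either, and no such share was computed for ratios of other pairs. The ratio of AIFM2 to GPX4 was 0.0974, 0.0947 and 0.0867 in Dox, against 0.101, 0.0837 and 0.107 in Cont, and the groups overlapped (exact permutation p = 0.6). A ratio shows unequal change of its 2 genes and does not say which of them moved.

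**Figure D3:**
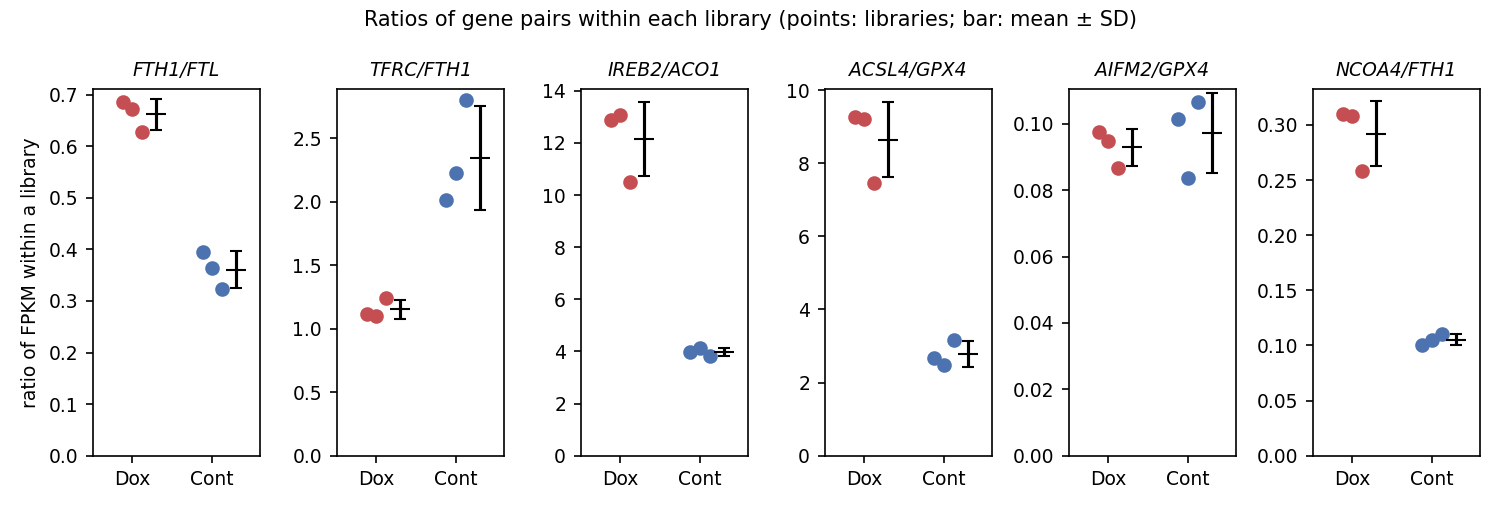
Ratio of FPKM within each library for 6 gene pairs, with Dox left of Cont in each panel. Points are libraries and bars are mean ± SD (n = 3); AIFM2 to GPX4 overlapped between the groups and the other 5 pairs did not.

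The rest of the pathway was read from 8 lists of genes grouped by role, of which 156 genes were in the table and 149 were tested. Of these, 44 rose, 83 fell and 22 did not pass, so 85.2% were called, beside 80.4% of all tested genes. STEAP2 and PLA2G6 among the rises and FLVCR2 among the falls passed the filter on low values through 1 group only, so their tests carry no weight. The median log2 change was -0.43, beside -0.06 for all tested genes. For FPKM as deposited, the counts of each list below are to be read against 37.6% higher and 42.8% lower among all tested genes. No list was tested as a whole. In nuclear-gene TPM 52 rose and 71 fell. Counts in that scaling are to be read against its own background, 5837 higher and 3855 lower of 12078 tested genes.

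Among genes of iron uptake and release, 4 of 10 tested rose and 5 fell (90.0% called, beside 80.4% of all tested genes). SLC40A1 (ferroportin, the exporter of iron) had FPKM 184, 188 and 214 in Dox, against 11.9, 12.4 and 13.3 in Cont, a 15.6-fold ratio (log2 change 3.86, SE 0.079, limma adjusted p = 6.19e-10). Its transcript also holds the hairpin letters in the 5′ UTR, shown here for comparison with the ferritin sites.
SLC40A1, 5′ UTR, chr2:189580661-189580689, minus strand: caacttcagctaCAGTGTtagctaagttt
CP (ceruloplasmin, a ferroxidase that works with ferroportin) had FPKM 26.5, 24.5 and 21.8 in Dox, against 0.915, 0.743 and 1.17 in Cont. Every Dox library was far higher, with a log2 change of 3.70 (SE 0.113, limma adjusted p = 3.13e-09) that was 4.71 on the deposited log2 values without a pseudocount. Of the genes of iron uptake, STEAP3, SLC39A14, SLC39A8, SCARA5 and SLC11A2 were lower. MCOLN1, from the same list, was higher. STEAP2, a metalloreductase related to STEAP3, was at 1.43, 1.55 and 1.83 FPKM in Dox and 0.296, 0.0617 and 0.619 in Cont. STEAP2 is counted among the 4 rises. It passed the filter on low values only through its 3 Dox libraries, so its test carries no weight here. STEAP3, the reductase that converts iron in transferrin endosomes, was at 2.87 ± 0.577 in Dox and 22.1 ± 0.696 in Cont, and SLC39A14, a carrier of iron not bound to transferrin, at 15.8 ± 0.425 in Dox and 74.4 ± 1.25 in Cont (SD, n = 3 each). SLC11A2, the carrier that moves iron out of endosomes, was at 67.4 ± 5.56 in Dox and 81.0 ± 2.14 in Cont, and this fall rested on scaling, with a log2 change of -0.26 as deposited and 0.01 in nuclear-gene TPM. The transferrin gene TF and the hepcidin gene HAMP were not in the table, and TMPRSS6 and BMP6 did not pass the filter on low values.

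Of 11 tested genes for cytosolic iron chaperones, ferritin turnover and control of the iron regulatory proteins, 5 rose and 5 fell (90.9% called, beside 80.4% of all tested genes). PCBP1, a chaperone that delivers iron to ferritin, fell to 25.8 ± 3.03 FPKM in Dox, against 60.7 ± 4.62 in Cont, and GLRX3, a glutaredoxin of cytosolic iron delivery, fell to 52.6 ± 4.17 in Dox, against 173 ± 7.95 in Cont (SD, n = 3 each). TAX1BP1, an autophagy receptor that takes part with NCOA4 in ferritin delivery, was higher, at 447 ± 17.8 in Dox and 264 ± 10.1 in Cont. FBXL5, the ubiquitin ligase subunit that marks IREB2 protein for degradation when iron is plentiful, was at 11.7 ± 0.443 in Dox and 16.9 ± 2.28 in Cont (log2 change -0.50, limma adjusted p = 0.00102). CUL1, the scaffold of that ligase, rose (1.16), and so did RNF217, a ubiquitin ligase that acts on ferroportin (1.59).

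Iron-sulphur cluster assembly had 8 rises and 17 falls among 31 tested genes (80.6% called, beside 80.4% of all tested genes), and 10 rises and 12 falls in nuclear-gene TPM. Genes that act late in mitochondrial cluster assembly went both ways. NUBPL (1.53), ISCA1 (1.22) and IBA57 (0.53) rose, and ISCA2 (-0.34), NFU1 (-0.45) and BOLA3 (-0.69) fell. In nuclear-gene TPM ISCA2 was at -0.10 and did not pass (limma adjusted p = 0.335). The mitochondrial chaperone gene HSPA9 fell (-1.41), with FPKM 44.4, 44.0 and 54.6 in Dox against 129, 128 and 125 in Cont. Of the core scaffold complex, ISCU rose (0.71) while LYRM4 fell (-0.60).

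Genes of heme synthesis, export and breakdown had 3 rises and 13 falls among 18 tested (88.9% called, beside 80.4% of all tested genes), and 4 rises and 11 falls in nuclear-gene TPM. FLVCR2, counted among the 13 falls, was at 0.933, 0.888 and 0.912 FPKM in Dox and 2.27, 2.08 and 1.82 in Cont. As deposited it passed the filter on low values only through its 3 Cont libraries, so its test carries no weight here. HMOX1, which breaks heme down and frees its iron, had FPKM 118, 108 and 123 in Dox, against 46.8, 49.8 and 36.8 in Cont. It rose in all 3 libraries (log2 change 1.37, SE 0.109, limma adjusted p = 1.39e-06). SLC48A1, a heme transporter, fell to 29.8 ± 2.04 in Dox, against 132 ± 27.6 in Cont, and PGRMC2, a heme chaperone, to 14.0 ± 1.17 in Dox, against 52.2 ± 0.86 in Cont (SD, n = 3 each).

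The supply of cystine, glutathione and selenoprotein factors on which GPX4 depends had 7 rises and 10 falls among 20 tested genes (85.0% called, beside 80.4% of all tested genes). The chains of the cystine carrier went opposite ways: SLC7A11 rose (log2 change 2.36), with FPKM 11.2, 11.4 and 10.8 in Dox against 1.17, 1.16 and 1.84 in Cont, and its partner SLC3A2 fell (-2.37), to 26.4 ± 1.90 in Dox against 141 ± 16.3 in Cont (SD, n = 3 each). So did the subunits of the first enzyme of glutathione synthesis, with GCLC at 1.99 and GCLM at -1.67. TXNRD1, a thioredoxin reductase, fell (-2.59), as did the glutamine carrier gene SLC1A5 (-2.26). SEPSECS (2.21) and PSTK (2.01), which load selenocysteine onto its transfer RNA, rose, and SEPHS2, which makes the selenium donor, fell (-0.91).

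Protection outside GPX4 had 7 rises and 13 falls among 24 tested genes (83.3% called, beside 80.4% of all tested genes), and 9 rises and 12 falls in nuclear-gene TPM. NQO1, a quinone reductase, fell to 60.7 ± 4.64 FPKM in Dox, against 330.4 ± 15.4 in Cont (SD, n = 3 each). PDSS1 (-2.01) and COQ2 (-1.84), early enzymes of coenzyme Q synthesis, fell. Other coenzyme Q genes went both ways as deposited. COQ9 (-0.69), COQ3 (-0.53) and PDSS2 (-0.47) fell, COQ7 (0.80), COQ8B (0.64) and COQ6 (0.58) rose, and COQ4, COQ5 and COQ8A did not pass. GCH1, the first enzyme of tetrahydrobiopterin synthesis, rose (1.79), and MBOAT1, a phospholipid acyltransferase, rose to 11.1 ± 0.897 in Dox, against 1.58 ± 0.235 in Cont.

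Among genes of polyunsaturated phospholipid synthesis and peroxidation, 3 of 19 tested rose and 12 fell (78.9% called, beside 80.4% of all tested genes). In nuclear-gene TPM 5 rose and 10 fell. PLA2G6, counted among the rises, was at 4.70, 4.84 and 3.53 FPKM in Dox and 0.528, 0.397 and 0.530 in Cont. It passed the filter on low values only through its 3 Dox libraries, so its test carries no weight here. FADS2 and FADS1, the desaturases that make polyunsaturated fatty acids, fell to 28.5 ± 6.40 and 7.44 ± 1.64 FPKM in Dox, against 227 ± 6.53 and 36.2 ± 1.12 in Cont (SD, n = 3 each). ELOVL5, an elongase of these acids, was at -1.87 in log2, and SCD, which makes monounsaturated acids, at -3.45. The related acyl-CoA synthetase genes ACSL3 (-1.17) and ACSL1 (-0.78) fell, opposite to ACSL4, and LPCAT3, which places the acids that ACSL4 activates into phospholipids, was at -0.46 as deposited and at -0.25 in nuclear-gene TPM, where it did not pass (limma adjusted p = 0.0698). SAT1, a polyamine acetyltransferase linked to lipid peroxidation, rose to 442 ± 22.6 in Dox, against 115 ± 37.3 in Cont.

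**Figure D4:**
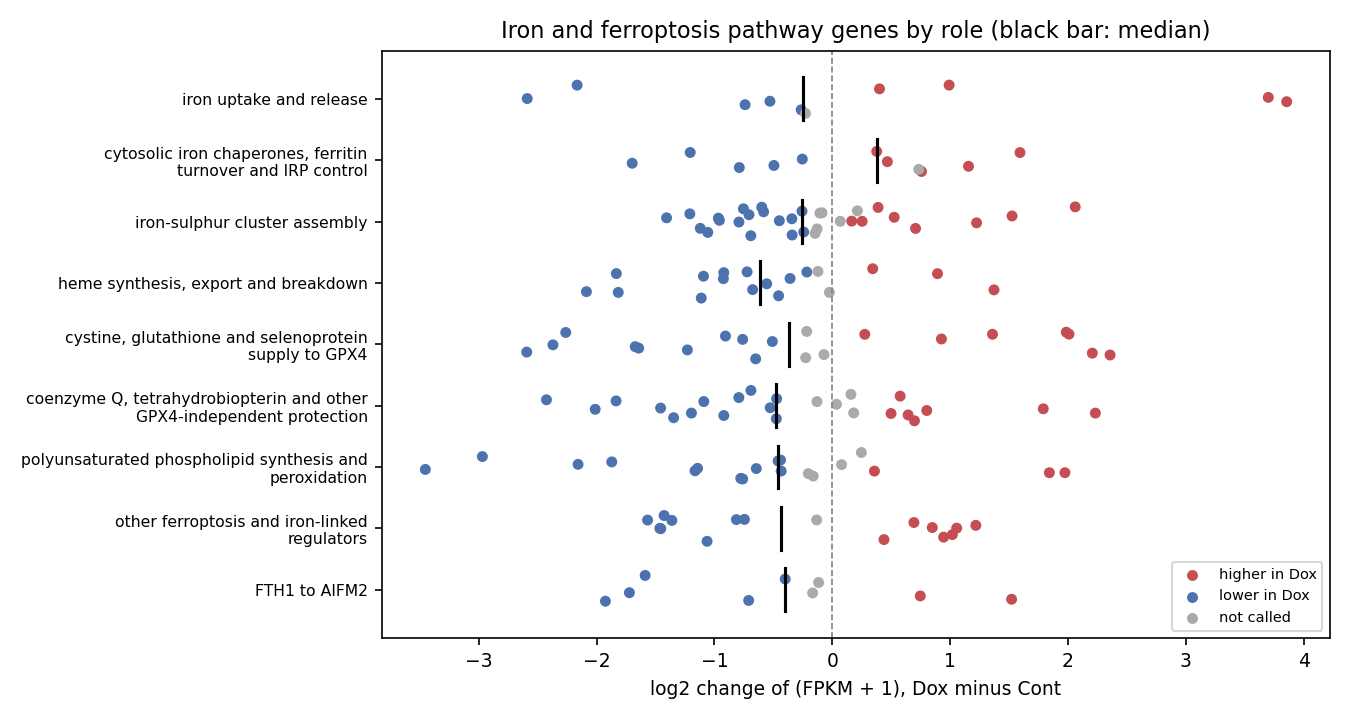
Log2 change, Dox minus Cont, computed with a pseudocount of 1, for every tested gene of the 8 pathway lists, 1 row a list, and for the 9 genes in the lowest row. Points are genes, coloured by call, and black bars are medians; SLC40A1 and CP stand alone at the right, at 3.86 and 3.70.

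Among the 149 tested pathway genes, those with the most similar profile over the 6 libraries were found for each gene by the root mean square difference of log2(FPKM + 1), each centred on its Cont mean. The nearest to ACSL4 was RNF217 (0.086), to NCOA4 was PTS (0.074), to FTH1 was ABCB10 (0.043), to FTL was HSPB1 (0.102) and to IREB2 was POR (0.046). PGRMC2 was nearest to both TFRC (0.105) and ACO1 (0.102). COQ5 was nearest to GPX4 (0.045) and NFE2L2 to AIFM2 (0.082). With profiles centred on Cont, this difference largely follows the change from Cont to Dox. A near gene is thus mainly one with a similar change, such as ABCB10 and FTH1, both at -0.71. Genes outside the lists were not compared. The signs of NFE2L2 and COQ5, like that of GPX4, turned with scaling.

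Promoters of RefSeq (GRCh38.p14, 250 bases before to 50 after the start) were matched for 8 of the 9 genes, all but FTH1. The letters GTAAACA or TGTTTAC, a core bound by FOXO factors, were in none of the 8, and in 3.42% of 35116 promoters searched on both strands. The letters TGACNNNGC or GCNNNGTCA, the core of the antioxidant response element, were in 2 of the 8, NCOA4 and AIFM2, and in 13.3% of all promoters. The 8 are genes, counted if any of their promoters matched, whereas the percentages are shares of single promoters. These matches are a description of short windows and say nothing of binding in these cells.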

How the data were processed

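Poly(A) RNA-seq libraries of 3 Dox and 3 Cont samples were analysed. The authors deposited 1 table of log2 FPKM for 13117 genes, from -8.59 to 13.9; the labels say FPKM, and the log2 scale was read from its negative values. FastQC 0.11.7 and GRCh38 are named per the submitters' processing notes; aligner, counting, annotation and filters are not given in the sources used here. In 1 Cont sample the description points to another sample's column, so columns were matched by title. Deposited log2 values were turned back into FPKM. Genes reaching an FPKM of 1 in 3 or more libraries (11526; 1591 left out) were tested with limma 3.58.1 (R 4.3.3) on log2(FPKM + 1), with trend, two-sided, Benjamini-Hochberg. This scale understates changes of low genes. The procedure was tested on simulated data in which few genes were changed, in equal numbers up and down. With 80.4% of tested genes called here, that simulation does not show how the procedure behaves in these data.

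Depth was estimated from 307 genes whose lowest value recurs in at least 2 libraries. In these genes the values above it and up to 20 reads (30 to 81 a library) all lay within 0.05 of whole reads, but 58.0% to 79.2% of these were even numbers, so depths and reads per gene may be off by a constant factor. The scale rests on GENCODE 29 transcript lengths and is rough, because the reads it implies sum to 2.27 to 2.41 times as many.

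The 9 genes and the pathway lists were chosen with earlier results of these data known. Pathway genes named are the up to 4 largest called changes of each list without overlap between groups and where the higher mean reaches FPKM 1, and for likeness the nearest tested pathway gene; the others named (such as STEAP2, SLC11A2, TAX1BP1, FBXL5, GCLC, LPCAT3, BACH1 and EPAS1) fall outside that rule and were chosen for their role after their values were seen. Some genes that met the rule are not reported here. Alternatives were other pseudocounts, filters, scalings and moderation, the replicate number as a block, and each library left out.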

Additional observations from a re-analysis of the deposited data

How the results depend on the processing

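The 7 calls among the 9 genes kept their direction under every alternative run, and 6 kept their call in all of them. IREB2 lost its call with quantile normalization (-0.14) and in nuclear-gene TPM (-0.12). Without a call, GPX4 turned to 0.16 in nuclear-gene TPM, 0.0176 with median-of-ratios scaling and 0.15 with quantile normalization, and AIFM2 turned to 0.10 in nuclear-gene TPM. Of other genes, SLC11A2 (0.0125), PCBP2 (0.0221), COQ5 (0.14) and NFE2L2 (0.15) turned in nuclear-gene TPM. NFE2L2 also turned with median-of-ratios scaling (0.00104) and with quantile normalization (0.16), and COQ5 with quantile normalization (0.00117). The cause was not tested. With any 1 library left out, 2 of the 9 genes were higher and 5 lower each time. The log2 change then ranged from 1.496 to 1.56 for ACSL4, 0.71 to 0.80 for NCOA4, -0.43 to -0.38 for IREB2, -0.78 to -0.65 for FTH1, -1.66 to -1.54 for FTL, -1.81 to -1.66 for TFRC, -2.05 to -1.86 for ACO1, -0.19 to -0.05 for GPX4 and -0.20 to -0.13 for AIFM2. The log2 ratio of AIFM2 to GPX4 differed by -0.163 to 0.0115, turning without Cont replicate 3. No pairing of the samples by replicate number was visible (correlations of same-numbered deviations 0.0371, -0.00483 and 0.0793), which does not show that there was none. With the replicate block 4335 genes were higher and 4937 lower, against 4329 and 4936 without it, and no call among the 9 genes changed, the change of IREB2 being -0.40 (limma adjusted p = 0.000833). As deposited, STEAP2 and PLA2G6 passed the filter on low values only through their 3 Dox libraries, and FLVCR2 only through its 3 Cont libraries. STEAP2 and PLA2G6 thus have no value with a Dox library left out, and FLVCR2 has none with a Cont library left out. None of them has a value with the stricter filter. Each of the 9 genes had at least 1821 reads a library on the rough depth scale, and each group had 3 libraries.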

Other observations

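Among 16 tested regulators linked to ferroptosis or iron, 7 rose and 8 fell (93.8% called, beside 80.4% of all tested genes). BACH1, a repressor of HMOX1 and of ferritin genes, was higher, at 252 ± 8.14 FPKM in Dox and 108 ± 2.30 in Cont (SD, n = 3 each; log2 change 1.22, limma adjusted p = 5.62e-08). The mRNA of NFE2L2 (NRF2), which activates the same genes, was at 241 ± 8.76 in Dox and 265 ± 16.8 in Cont and did not pass (limma adjusted p = 0.106). NFE2L2 was called in either direction depending on the processing: higher in nuclear-gene TPM (0.15, limma adjusted p = 0.0381) and with quantile normalization (0.16, limma adjusted p = 0.0311), and lower without Cont replicate 3 (-0.18, limma adjusted p = 0.0175). KEAP1, which marks NRF2 for degradation, fell (-0.75).

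The largest falls of that list were those of HMGB1 (-1.57), a nuclear protein released by dying cells, the chaperone gene HSPB1 (-1.46), the mitochondrial channel gene VDAC3 (-1.46) and ATF4 (-1.43), the factor of the amino acid stress response. EPAS1 (HIF-2 alpha), whose mRNA is known to carry an iron-responsive element, was higher, at 14.6 ± 0.92 in Dox and 8.74 ± 1.92 in Cont (SD, n = 3 each; log2 change 0.69, limma adjusted p = 0.00085).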
